A study of Mus musculus with 12 samples.

Results

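The 10 genes described here encode the cyclins and cyclin-dependent kinases (CDKs) that drive the cell division cycle: the D-type cyclins *Ccnd2* and *Ccnd3*, the E-type cyclins *Ccne1* and *Ccne2*, the A-type cyclin *Ccna2*, the B-type cyclins *Ccnb1* and *Ccnb2*, and the kinases *Cdk2*, *Cdk4* and *Cdk6*. They were chosen by name, as a list of cell cycle regulators, and are 10 of 41255 genes in the mRNA table and 10 of 10080 genes in the table of ribosome-protected fragments (RPF). Both tables come from clones of Ba/F3, a mouse lymphoid cell line that grows in interleukin-3. Every clone carried a retroviral vector for human *RPL10*, a protein of the large ribosomal subunit, and an shRNA that knocks down the cell's own *Rpl10*. In 3 clones (11, 13 and 35) the vector encoded the R98S mutant found in T-cell leukemia, and in the other 3 (28, 29 and 36) it encoded *WT* RPL10, so that vector, knockdown and clonal selection are shared by both genotypes. Each clone was treated with 100 µg/ml cycloheximide for 5 min, which halts ribosomes on the mRNA, and gave 1 RPF library and 1 matching mRNA library, which makes 12 libraries. The question asked of these genes is whether their mRNA, their footprints or the ratio of both (translation efficiency, TE) differed between *R98S* and *WT* clones.

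A cyclin binds and activates a CDK, and the order in which cyclins appear and are destroyed moves a cell from growth to DNA replication and on to mitosis. D-type cyclins with CDK4 or CDK6 respond to growth factors and begin to phosphorylate the retinoblastoma protein, which frees the E2F factors. Cyclin E with CDK2 completes that step and starts replication, cyclin A acts in S phase and G2, and cyclin B with CDK1 drives entry into mitosis. In lymphoid cells cyclins D2 and D3 and CDK6 are the usual members of the first group.

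All values are normalized counts as deposited by the authors, that is reads per gene divided by a size factor for each library, set separately in each table. The libraries held 6617457 to 23136595 mRNA reads and 3477723 to 10883086 RPF reads, of which 9106 to 39203 and 5834 to 21062 fell on the 10 genes. Among the mRNA libraries that of *WT* clone 28 was the shallowest, where a single read stands for 2.69 normalized counts (0.784 to 0.860 in the others), and among the RPF libraries that of *R98S* clone 35, at 1.68 (0.532 to 1.32 in the others). *Rpl10* mRNA, to which vector and endogenous reads may both count, ranged from 1449 to 2905 over the *R98S* and from 2230.2 to 4501 over the *WT* clones, which does not tell the genotypes apart. Of 13 pro-B cell markers, 3 (*Cd79a*, *Cd79b* and *Ptprc*) reached a mean of 10 normalized mRNA counts, while *Pax5* and *Rag1* were at 0 in all 6 mRNA libraries. All 3 interleukin-3 receptor genes did, with a summed level of 95080.5 to 117075 in *R98S* and 42064 to 80899 in *WT* clones, as did 5 of 8 mast cell and basophil genes, with 12315 to 15829 against 20403 to 26588. T cell genes (2 of 7 reached it) summed to 144 to 152 in *R98S* and 58.0 to 77.9 in *WT* clones, and fibroblast genes (0 of 5) to 3.44 to 12.7 against 0 to 0.825. Macrophage genes (2 of 5) overlapped, at 99.2 to 145 against 118 to 186. The pro-B cell sums overlapped as well (5474 to 6667 in *R98S*, 6029 to 12914 in *WT* clones). Of all single genes tested in mRNA, 23.5% did not overlap between genotypes. The receptor, mast cell, T cell and fibroblast sums separated the genotypes, the fibroblast sums on counts near 0, and their part in the results below was not tested. In bulk libraries, fewer cells in a given phase of the cycle and less RNA per cell cannot be told apart.

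Changes were tested with limma on log2(normalized count + 1), a scale that understates changes of low genes, and an adjusted p (Benjamini-Hochberg over all genes tested) under 0.1 was taken as a change. With 3 against 3 clones an exact permutation test of 1 gene cannot go below p = 0.1. All 10 genes passed the filter on low values (a mean of 10) in both tables, and the filter for TE. Of the 10, *Ccna2* mRNA rose in *R98S* clones and no mRNA fell, where 3.03% of 11344 genes tested were higher and 3.91% lower. In RPF none rose and 2 fell (*Ccnd3* and *Ccnb1*), where 3.13% of 9580 genes were higher and 4.62% lower. For RPF rises limma gave 0 genes also at an unadjusted p under 0.05, as did edgeR and DESeq2, where 9.62% of all genes were higher by limma. At that level 2 of the 10 were lower in RPF, against 10.7% of all genes (limma). In TE limma called 0 of the 10, against 0.0221% of all 9043 genes tested. At an unadjusted p under 0.05 it was 1 of the 10 (*Ccna2*), against 7.85% of all genes. The median log2 change of the 10 genes was -0.24 for mRNA, -0.04 for RPF and -0.04 for TE, beside 0.01, 0.01 and -0.0014 over all genes tested. Changes that passed therefore touched 3 of the 10 genes, each in 1 kind of library.

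**Figure D1:**
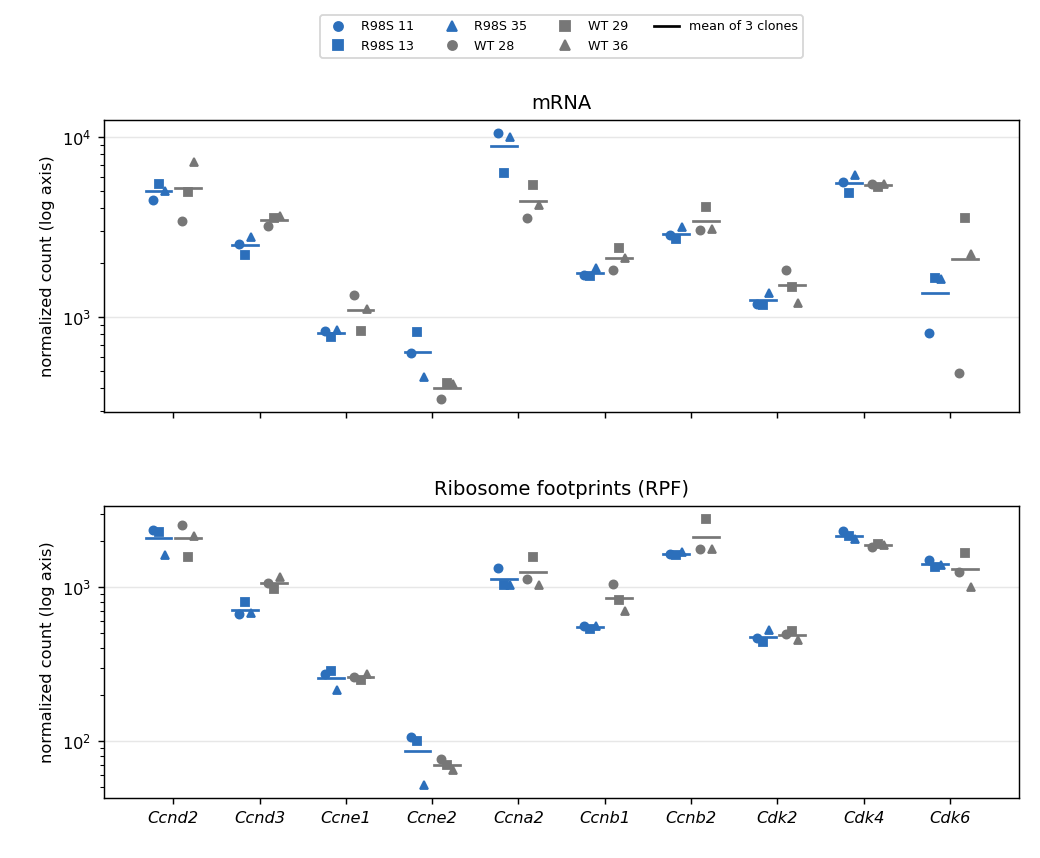
Normalized counts of the 10 genes in each clone, mRNA above and RPF below, on log axes; blue marks are *R98S* clones, gray marks *WT* clones, and bars are means of 3 clones. *Ccna2* mRNA of the 3 *R98S* clones (6262 to 10442) lies above that of the *WT* clones (3537 to 5422), and RPF of *Ccnd3* and *Ccnb1* lies lower in all *R98S* clones.

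**Figure D2:**
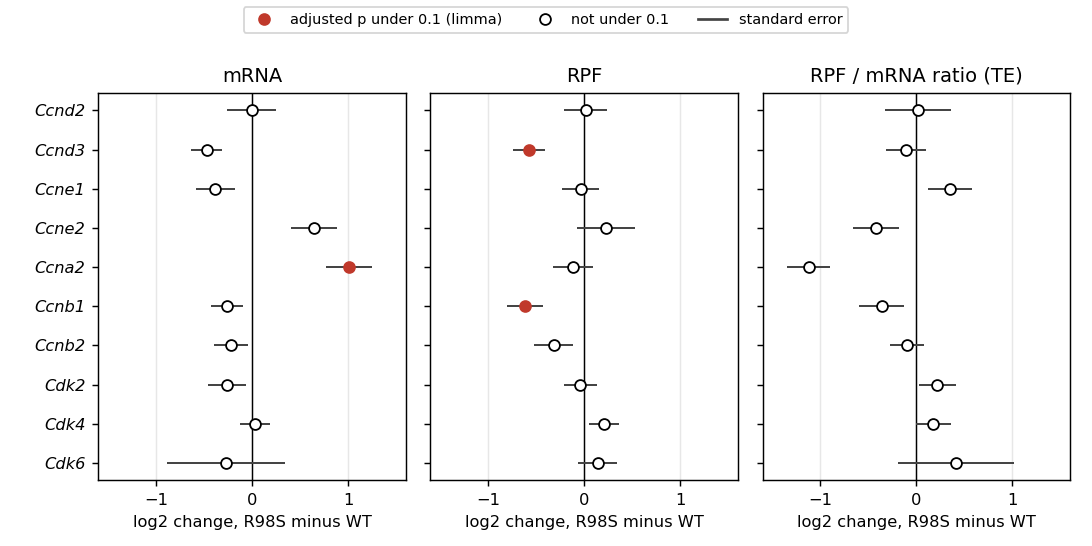
Log2 change (*R98S* minus *WT*) of each gene in mRNA, RPF and their ratio, with its standard error from limma; red points have an adjusted p under 0.1. *Ccna2* stands at 1.00 in mRNA and at -1.12 in TE, while the RPF changes of *Ccnd3* (-0.58) and *Ccnb1* (-0.62) are the ones that passed in that table.

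Of the D-type cyclins, *Ccnd2* (chromosome 6, 127125162 to 127152193, minus strand, mm10) did not separate the genotypes. In mRNA, *R98S* clones 11, 13 and 35 had 4426, 5457 and 5014 normalized counts, and *WT* clones 28, 29 and 36 had 3394, 4964 and 7264. The *WT* clones alone spanned 2.14-fold and enclosed all *R98S* values. RPF (2333, 2282 and 1626 against 2512, 1566 and 2135) overlapped too, and neither change passed (log2 -0.01, standard error 0.26, for mRNA and 0.01, standard error 0.22, for RPF, adjusted p = 0.995 and 0.977, limma). TE of *Ccnd2* ran from 0.294 in *WT* clone 36 to 0.740 in *WT* clone 28, and its scatter between clones of 1 genotype (residual SD 0.58 on the log2 scale) was larger than that of 94.2% of genes. *Ccnd2* has 9409 bases of exon sequence. In mRNA of *WT* clone 28, genes with over 9 kb of it had a median deviation of -0.26 (log2), against -0.03 to 0.13 in the other clones. The part of this shift in the *Ccnd2* scatter was not tested.

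*Ccnd3* (chromosome 17, 47505051 to 47599691, plus strand) was lower in *R98S* clones in both kinds of library. Footprint counts were 668, 795 and 677 for *R98S* clones 11, 13 and 35, against 1060.4, 967 and 1161 for *WT* clones 28, 29 and 36. Every *R98S* value lay below every *WT* value. On the log2 scale the RPF of *Ccnd3* fell by 0.58 ± 0.17 (standard error, n = 3 per genotype), to 0.671 of the *WT* level, with an adjusted p of 0.0903 in limma. The call was lost when any clone but *WT* clone 29 was left out (adjusted p from 0.131 without *R98S* clone 35 to 0.269 without *R98S* clone 11, limma), although the change stayed between -0.66 and -0.51. *Ccnd3* mRNA, with 2549, 2207 and 2759.6 for *R98S* against 3204, 3547 and 3635 for *WT*, did not overlap either, but its change of -0.47 ± 0.16 (log2, standard error) missed the threshold (adjusted p = 0.156, limma). With DESeq2 on whole reads the mRNA change of *Ccnd3* passed (adjusted p = 0.0872). TE of *Ccnd3* overlapped between genotypes, at 0.289 ± 0.0622 in *R98S* and 0.308 ± 0.0309 in *WT* clones (SD, n = 3), so the lower footprints went with lower mRNA. Groups did not overlap for 23.5% of all genes in mRNA and 25.3% in RPF. Counted per kb of the counted sequence, so that genes can be compared, RPF of *Ccnd2* was 3.76, 3.09 and 2.58 times that of *Ccnd3* in *R98S* clones 11, 13 and 35 and 2.55, 1.74 and 1.98 times in *WT* clones 28, 29 and 36. These ratios did not overlap, while the mRNA ratios did (1.62 to 2.31 and 0.988 to 1.86). The remaining D-type cyclin gene, *Ccnd1*, had 7.84 to 25.4 normalized mRNA counts in the 6 clones, from 6 to 32 reads, and is not listed in the RPF table. That table holds only genes with footprints in every RPF library, so the absence of *Ccnd1* does not mean that it had none.

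The E-type cyclins bind CDK2 at the start of replication. *Ccne1* (chromosome 7, 38097984 to 38107534, minus strand) had 834, 774 and 842 normalized mRNA counts in *R98S* and 1313, 832 and 1107 in *WT* clones, and the groups overlapped through *WT* clone 29. Footprints averaged 257 ± 37.9 for *R98S* and 261 ± 11.0 for *WT* (SD, n = 3), so the mean footprint level differed by less than the spread between clones. *Ccne2* (chromosome 4, 11191351 to 11204779, plus strand) went the other way in mRNA, with 631, 825 and 465 in *R98S* and 349, 431 and 422 in *WT* clones. No *R98S* value was below a *WT* value, but clone 35 came close, and the log2 change of 0.64 did not pass (standard error 0.24, adjusted p = 0.191, limma). Without *R98S* clone 35 it was 0.85 (adjusted p = 0.0883, limma). It did not pass with any other clone left out (adjusted p from 0.240 without *WT* clone 29 to 0.563 without *R98S* clone 13, limma). With chromosome medians removed the *Ccne2* mRNA change was 0.48 (adjusted p = 0.367, limma). *Ccne2* had the fewest footprints of the 10 genes, 31 to 200 reads per library, and its RPF of 106, 99.7 and 52.1 in *R98S* and 76.4, 69.8 and 64.6 in *WT* clones overlapped. Per kb, *Ccne1* mRNA was 1.73, 1.23 and 2.38 times *Ccne2* mRNA in *R98S* clones 11, 13 and 35 and 4.94, 2.54 and 3.44 times in *WT* clones 28, 29 and 36, without overlap, a shift that RPF did not show (2.33 to 3.72 and 3.09 to 3.83).

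*Ccna2*, the cyclin of S phase and G2, was the member with the largest difference. It lies on chromosome 3 (36564865 to 36572150, minus strand, mm10). In mRNA, *R98S* clones 11, 13 and 35 reached 10442, 6262 and 9960.3 normalized counts, and *WT* clones 28, 29 and 36 reached 3537, 5422 and 4202. All *R98S* clones lay above all *WT* clones, with *R98S* clone 13 nearest to them. *Ccna2* mRNA rose 2.01-fold, a log2 change of 1.00 ± 0.24 (standard error, n = 3 per genotype), at an adjusted p of 0.0516 in limma, and was higher in 3 of 3 *R98S* clones. Leaving out *R98S* clone 11, *R98S* clone 35 or *WT* clone 36 ended the call (adjusted p = 0.207, 0.134 and 0.154, limma), with changes of 0.87, 0.90 and 0.98. The median mRNA level of chromosome 3 was shifted by 0.09, -0.31 and -0.20 (log2) in *R98S* clones 11, 13 and 35 and by 0.11 to 0.15 in *WT* clones. The difference between the genotype means of this shift (-0.28) was opposite in direction to *Ccna2*, while within *R98S* the shifts ran in the same order as *Ccna2*. With each chromosome's median removed, the *Ccna2* change was 1.28 (adjusted p = 0.0127, limma).

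The footprints of *Ccna2* did not follow. *R98S* clones had 1338, 1034 and 1036 RPF counts and *WT* clones 1130.1, 1572 and 1030.5, a range of 1.53-fold in which the genotypes overlapped. The change of -0.12 ± 0.21 (log2, standard error) did not pass (adjusted p = 0.786, limma), and was 0.18 with chromosome medians removed, so its sign depended on the scaling. TE was therefore 0.128, 0.165 and 0.104 in *R98S* clones 11, 13 and 35 and 0.320, 0.290 and 0.245 in *WT* clones 28, 29 and 36. Each *R98S* value was lower than each *WT* value, which held in TE for 14.8% of all genes in 1 direction or the other. The TE change of -1.12 (standard error 0.23, unadjusted p = 0.000617) did not pass in limma (adjusted p = 0.517), in an edgeR interaction model with a term for each clone (adjusted p = 0.244), or in a DESeq2 interaction model without such a term (adjusted p = 0.433). It passed in a DESeq2 interaction model with a term for each clone, which was added after the data were seen (adjusted p = 0.00165). That model called 0.42% of 9043 genes lower, *Ccna2* alone among the 10.

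Both neighbours of *Ccna2* were measured as well. *Bbs7*, a gene of the primary cilium on the same strand, ends 991 bases upstream of the 5′ end of *Ccna2* (36573142 to 36613477). *Bbs7* mRNA stood at 7918, 5200.4 and 7698 for *R98S* clones 11, 13 and 35, against 2.69, 0 and 1.57 for *WT* clones 28, 29 and 36. Clones in which *Bbs7* was high were thus those in which *Ccna2* was high, in the same order within *R98S*. The median mRNA shift of chromosome 3, on which both genes lie, had that order too (0.09, -0.31 and -0.20 in *R98S* clones 11, 13 and 35). An order of 3 clones carries little information. *Bbs7* is not listed in the RPF table, where each gene listed has footprints in every RPF library. With *Bbs7* mRNA near 0 in *WT* clones, its absence there does not show that *R98S* clones lacked *Bbs7* footprints. *Exosc9*, an exosome subunit gene on the plus strand, overlaps the 3′ end of *Ccna2* by 863 bases, and had 761, 554 and 558 normalized mRNA counts in *R98S* and 585, 411 and 582 in *WT* clones. Its genotypes overlapped. Whether strand was used in counting is not given in the sources used here, so mRNA reads in the shared bases could not be assigned to 1 of the genes. The part of the neighbouring transcription in the *Ccna2* mRNA count was not tested.

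**Figure D3:**
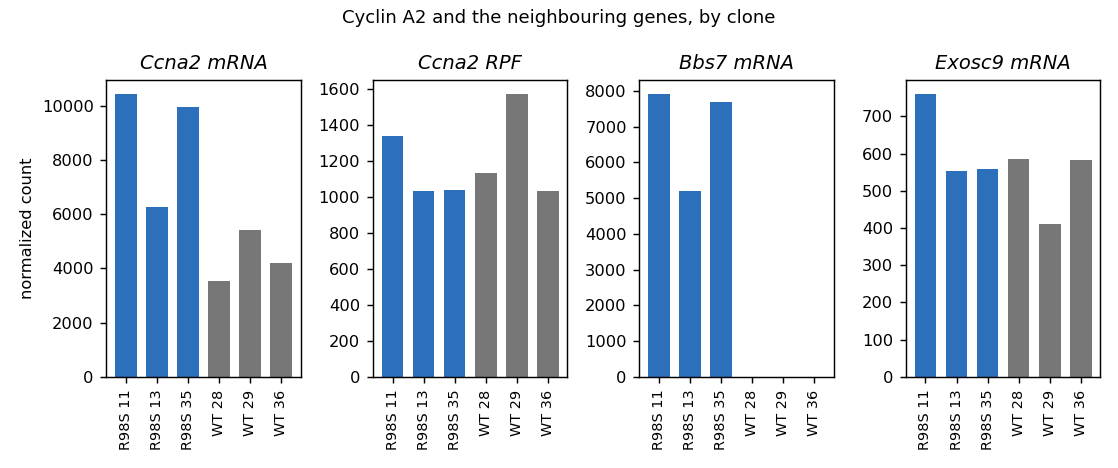
Normalized counts of *Ccna2* (mRNA and RPF) and mRNA of its neighbours *Bbs7* and *Exosc9* in each clone; bars are single clones, blue for *R98S* and gray for *WT*, each panel with its own axis from 0. *Ccna2* mRNA and *Bbs7* mRNA were high in the 3 *R98S* clones, whereas *Ccna2* RPF (1030.5 to 1572) and *Exosc9* mRNA (411 to 761) overlapped between genotypes.

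The B-type cyclins activate CDK1 at mitosis. Their promoters are a textbook case of cell cycle control by CCAAT boxes, which bind NF-Y, and the cell cycle homology region (CHR). The 250 bases before the transcription start of *Ccnb1* and *Ccnb2*, whose mRNAs kept a near constant ratio over the clones, are shown with those of *Ccnd3*, whose footprints also fell, as the RefSeq annotation of GRCm38.p6 gives them, 5′ to 3′ on the strand of the gene. The window is chr13:100786487-100786736 (minus strand) for *Ccnb1*, chr9:70421555-70421804 (minus strand) for *Ccnb2* and chr17:47504801-47505050 (plus strand) for *Ccnd3*. Capitals mark CCAAT on either strand, TTTGAA (the CHR letters) on either strand, and, for E2F, either TTCGCGC or TTCCCGC as well as either TTGGCGC or TTGCCGC on both strands.
Ccnb1: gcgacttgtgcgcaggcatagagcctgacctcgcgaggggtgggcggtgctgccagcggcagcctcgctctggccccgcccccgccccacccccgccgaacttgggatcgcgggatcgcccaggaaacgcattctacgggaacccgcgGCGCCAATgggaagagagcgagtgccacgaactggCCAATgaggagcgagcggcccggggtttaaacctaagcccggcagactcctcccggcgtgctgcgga
Ccnb2: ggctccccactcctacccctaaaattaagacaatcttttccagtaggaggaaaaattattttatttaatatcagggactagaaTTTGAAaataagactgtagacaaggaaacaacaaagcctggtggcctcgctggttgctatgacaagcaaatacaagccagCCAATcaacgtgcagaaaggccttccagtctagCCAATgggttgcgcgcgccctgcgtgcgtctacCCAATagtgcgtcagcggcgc
Ccnd3: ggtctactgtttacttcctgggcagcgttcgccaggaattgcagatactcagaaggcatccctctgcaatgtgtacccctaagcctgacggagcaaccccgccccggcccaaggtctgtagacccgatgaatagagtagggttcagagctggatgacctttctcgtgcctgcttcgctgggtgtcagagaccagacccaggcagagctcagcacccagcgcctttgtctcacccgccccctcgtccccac
The *Ccnb2* window held 3 CCAAT matches, 87, 54 and 21 bases before the start, and 1 TTTGAA match at 167. In *Ccnb1* there were 2 CCAAT matches, at 99 and 67, the first of which overlaps its E2F match at 102, and the *Ccnd3* window held none of these letters. Of 27025 promoter windows of this length, 34.5% held at least 1 CCAAT, 10.5% at least 2 and 2.98% at least 3, while 16.3% held TTTGAA and 7.97% an E2F match. Promoters of 7 of the 10 genes were in the table; *Ccnd2*, *Ccne2* and *Ccna2* were not. Of the others, *Cdk2* held 1 CCAAT and 2 E2F matches, the second *Ccnd3* start listed had 1 CCAAT match at 108, and the windows of *Ccne1*, *Cdk4* and *Cdk6* held no match. A match describes letters and is not a bound site.

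*Ccnb1* (chromosome 13, 100778650 to 100786570, minus strand) fell in footprints. Footprint counts were 556, 533 and 558 for *R98S* clones 11, 13 and 35, against 1042, 818 and 704 for *WT* clones 28, 29 and 36. The *R98S* clones had a mean of 549 with an SD of 13.8, and all lay below the lowest *WT* clone. On the log2 scale *Ccnb1* RPF fell by 0.62 ± 0.19 (standard error, n = 3 per genotype), to 0.651 of the *WT* level, with an adjusted p of 0.0969 in limma. This call was close to the threshold. It was lost with each of the 6 clones left out in turn (adjusted p from 0.107 without *WT* clone 36 to 0.281 without *R98S* clone 13, limma) and with chromosome medians removed (log2 change -0.52, adjusted p = 0.145, limma), and it was kept by DESeq2 on whole reads (adjusted p = 0.0440). The median RPF level of chromosome 13 differed by -0.10 (log2) between the genotypes. *Ccnb1* mRNA counts were 1710.0, 1681 and 1872 for *R98S* and 1826, 2398 and 2114 for *WT*, which overlapped only through *R98S* clone 35 and *WT* clone 28, with a change of -0.26 (standard error 0.17, adjusted p = 0.465, limma). TE of *Ccnb1* was 0.325, 0.317 and 0.298 against 0.571, 0.341 and 0.333, without overlap, but the *WT* mean rests largely on clone 28, whose mRNA library is the shallow one, and the change of -0.36 went to -0.11 when that clone was left out.

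*Ccnb2* (chromosome 9, 70407692 to 70421547, minus strand) had RPF of 1645, 1608 and 1688 in *R98S* and 1773, 2765 and 1762 in *WT* clones. All *R98S* clones were again below all *WT* clones, by little except for *WT* clone 29. The change of -0.32 did not pass (standard error 0.20, adjusted p = 0.414, limma), and its mRNA overlapped (2899.9 ± 246 in *R98S*, 3395 ± 581 in *WT* clones, SD, n = 3). Both B-type cyclins thus had RPF values that did not overlap, and only that of *Ccnb1* passed. Over all genes, RPF values did not overlap for 25.3%, and for 12.8% with *R98S* clones lower. Per kb, *Ccnb2* mRNA was 4.01 to 4.67 times *Ccnb1* mRNA in all 6 clones. In RPF that ratio was 3.21, 3.27 and 3.28 in *R98S* clones and 1.85, 3.67 and 2.72 in *WT* clones, so the *R98S* clones were close together within a wider *WT* range. *Cdk1*, the kinase these cyclins activate, had RPF of 1265, 1409 and 1394 in *R98S* and 2102, 2044 and 1623 in *WT* clones, without overlap (log2 change of -0.50 ± 0.17, SE, limma adjusted p = 0.140), and mRNA of 1984 to 2546 against 2573 to 4259 (log2 change -0.54, adjusted p = 0.212, limma).

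Among the kinases no change passed. *Cdk4* (chromosome 10, 127063534 to 127067920, plus strand), partner of the D-type cyclins, scattered least of the 10 genes between clones of a genotype, in both tables. Its mRNA counts were 5628, 4899 and 6109 for *R98S* and 5475, 5269.6 and 5482 for *WT*, and its RPF counts 2309.6, 2136 and 2037 against 1832, 1914 and 1865. The footprints did not overlap between genotypes, but the change was small (log2 0.21, standard error 0.16, adjusted p = 0.501, limma), and its residual SD in RPF (0.07) was smaller than that of all but 0.887% of genes. *Cdk2* (chromosome 10, 128697939 to 128705031, minus strand), partner of cyclins E and A, had RPF of 464, 437 and 526 in *R98S* and 497, 517 and 453 in *WT* clones. These span 1.20-fold, with overlap, and its mRNA (1160.5 to 1360.0 and 1189 to 1821) overlapped as well.

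*Cdk6* (chromosome 5, 3341485 to 3531008, plus strand), the D-cyclin kinase of blood cells, varied most between clones. In mRNA, *R98S* clones 11, 13 and 35 had 814, 1645 and 1627 normalized counts, and *WT* clones 28, 29 and 36 had 489, 3533 and 2231. The lowest and the highest value are both *WT*, 7.23-fold apart, and the residual SD of 1.13 (log2) exceeded that of 97.5% of genes. Its footprints spanned only 1.67-fold, with 1507, 1345 and 1385 for *R98S* and 1251, 1670.0 and 1001 for *WT*. The mRNA change of -0.27 (standard error 0.62, adjusted p = 0.866, limma) turned to 0.06 without *R98S* clone 11 and to 0.31 without *WT* clone 29, and reached -1.11 (adjusted p = 0.0932, limma) without *WT* clone 28, so no direction can be given. TE of *Cdk6* went from 0.449 in *WT* clone 36 to 2.56 in *WT* clone 28, and 99.9% of genes scattered less. *Cdk6* has 13989 bases of annotated exon sequence. In *WT* clone 28, the 1334 genes with over 9 kb of exon sequence had a median deviation of -0.26 (log2) from their mean over the clones, and the 918 genes with up to 1.5 kb one of 0.27. In the other 5 clones these medians lay between -0.03 and 0.13 and between -0.14 and 0.06. In *R98S* clone 11, with 814 counts of *Cdk6* mRNA, long genes were shifted by -0.03. The part of the difference between long and short genes in the *Cdk6* values was not tested.

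To set the genes beside each other, counts were divided by kb, of all annotated exons for mRNA and of the counted coding sequence for RPF, and averaged over the 6 clones. The RPF density was highest for *Ccnd2* (2394 ± 451, SD, n = 6) and *Cdk4* (2374 ± 216), then *Ccnb2* (1652 ± 389) and *Cdk6* (1482 ± 248). *Ccnd3* (952 ± 221) and *Ccna2* (949 ± 176) were next, followed by *Ccnb1* (571 ± 163) and *Cdk2* (493 ± 36.9), with *Ccne1* (204 ± 19.8) and *Ccne2* (67.8 ± 18.2) lowest. Ranges over the clones overlapped between all neighbours in this order except *Cdk2* and *Ccne1*, and *Ccne1* and *Ccne2*. In mRNA density the order was *Ccnb2*, *Cdk4*, *Ccna2*, *Ccnd2*, *Ccnb1*, *Ccne1*, *Ccnd3*, *Cdk2*, *Ccne2* and *Cdk6*, from 2056 ± 315 down to 123 ± 77.6, and only *Ccna2* and *Ccnd2* had ranges that did not overlap. The place of *Ccna2* differed by genotype: its mean of 2177 was above *Ccnb2* (1894) and *Cdk4* (1707) in *R98S* clones, and its mean of 1074 was below both (2218 and 1665) in *WT* clones. *Cdk6* was thus lowest in mRNA density and among the upper 4 in RPF density. Relative to the median ratio of RPF to mRNA density over 8770 genes, *Cdk6* stood at 3.84 (log2), above 99.8% of genes, *Ccnd2* at 2.15, *Ccnd3* at 1.47 and *Cdk2* at 1.18. *Cdk4* (0.48), *Ccnb1* (0.27) and *Ccnb2* (-0.34) were near that median, and *Ccna2* (-0.69), *Ccne1* (-0.79) and *Ccne2* (-1.12) were lower. By this measure *Ccnd2*, *Ccnd3* and *Cdk6* had more footprints per mRNA than the median gene and the E-type cyclins fewer, while *Cdk4* stood only at the 69.1 percentile. *Ccna2* stood at the 45.2 percentile in *WT* and the 12.3 percentile in *R98S* clones. Dividing by all annotated exons understates the mRNA density of a gene whose transcripts in these cells use only part of them, which raises its ratio. Whether this held for genes with long exon sequence, such as *Cdk6*, *Ccnd2* (9409 bases), *Ccnd3* (8775 bases) and *Cdk2* (6219 bases), was not tested.

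**Figure D4:**
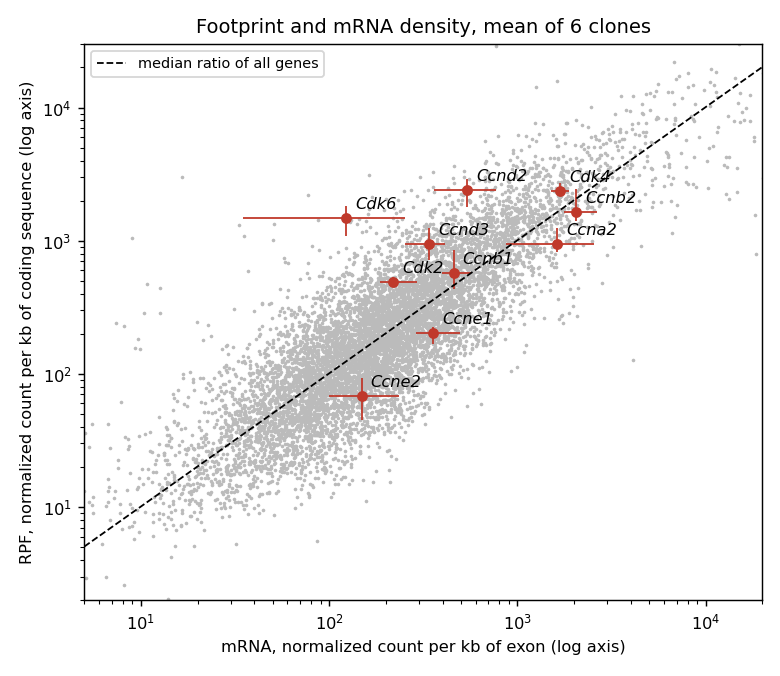
RPF per kb of coding sequence against mRNA per kb of exon (log axes, means of 6 clones, lines from the lowest to the highest clone) for the 10 genes in red and 8770 genes in gray; the dashed line is the median ratio of all genes. *Cdk6*, *Ccnd2*, *Ccnd3* and *Cdk2* lie above the line and *Ccne1*, *Ccne2* and *Ccna2* below it.

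Across the 12 libraries, with each table centred on its own mean, the pairs most alike among the 10 genes were *Ccnd3* and *Ccnb1* (Pearson r = 0.77) and *Ccnb1* and *Ccnb2* (0.59). *Cdk2* ran opposite to *Ccne2* (-0.70) and *Ccnd2* (-0.69). Libraries of a clone are not independent, so these values only describe how the levels ran together over these libraries. Among 9500 genes, the one with the most similar pattern was *Sec31a* for *Ccnd2* (r = 0.93), *Clec11a* for *Ccnd3* (0.97), *Sae1* for *Ccne1* (0.95), *Swt1* for *Ccne2* (0.94) and *Kif24* for *Ccna2* (0.88). For *Ccnb1* it was *Ddb1* (0.95), for *Ccnb2* *Rbm44* (0.96), for *Cdk2* *Slc44a4* (0.93), for *Cdk4* *Tprgl* (0.89) and for *Cdk6* *Fam210a* (0.96). Each r is the highest among 9500 genes, so a high value follows in part from the choice, and these matches are descriptive.

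Regulators and partners of these genes were taken from 7 lists with 126 genes in all. Of 119 tested in mRNA, 1 rose (*Wee1*) and 3 fell (*E2f2*, *Cdk13* and *Fbxw7*), and of 116 tested in RPF 1 rose (*Wee1*) and 1 fell (*E2f2*), in limma shares below those of all genes. With DESeq2, 12 of the 116 fell in RPF and 2 rose, where 6.54% of all genes fell, so that comparison turned with the tool. In TE limma called 0 of 116, with 9 at an unadjusted p under 0.05, against 7.85% of all genes. There edgeR with a clone term and DESeq2 without one called 0. DESeq2 with a clone term called 2, where it called 54 of all 9043 genes tested. *E2f2*, a factor that the retinoblastoma protein holds in check, had 421, 455 and 468 normalized mRNA counts in *R98S* and 1356, 845 and 913 in *WT* clones. It fell by 1.18 in mRNA (standard error 0.22, adjusted p = 0.0172, limma) and by 1.13 in RPF (standard error 0.28, adjusted p = 0.0490, limma), where the call was lost without *R98S* clone 11 or 13 or *WT* clone 28 or 36 (adjusted p = 0.162, 0.168, 0.130 and 0.104, limma). *Wee1*, the kinase that holds CDK1 inactive before mitosis, had 718, 717 and 375 mRNA counts in *R98S* and 204, 325 and 271 in *WT* clones. The rise was 1.14 in mRNA (standard error 0.30, adjusted p = 0.0743, limma) and 0.88 in RPF (standard error 0.26, adjusted p = 0.0893, limma), and both calls were lost with chromosome medians removed (adjusted p = 0.164 and 0.196, limma). They were also lost in mRNA without *R98S* clone 11 or 13 or *WT* clone 28 or 36 (adjusted p = 0.270, 0.280, 0.113 and 0.181, limma) and in RPF without any clone but *R98S* clone 35 (adjusted p from 0.128 to 0.305, limma). *Fbxw7*, whose product marks cyclin E for destruction, fell by 0.77 in mRNA (standard error 0.21, adjusted p = 0.0856, limma), and *Cdk13*, a kinase of transcription, by 0.57 (standard error 0.16, adjusted p = 0.0951, limma). With chromosome medians removed both were past the threshold no longer (adjusted p = 0.199 and 0.121, limma), and *Cdk13* was not with TMM scaling (adjusted p = 0.104, limma) or without the filter on low values (adjusted p = 0.139, limma). *Fbxw7* was called only with *WT* clone 29 left out (adjusted p = 0.0594, the others from 0.101 to 0.300, limma) and *Cdk13* only with *WT* clone 28 left out (adjusted p = 0.0635, the others from 0.138 to 0.315, limma).

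By list, the 20 other cyclins (16 tested in mRNA), the 8 CDK inhibitors (7 tested) and the 24 mitotic genes held no call by limma, in mRNA or RPF. In mRNA edgeR called 1 of these other cyclins and no inhibitor or mitotic gene, and DESeq2 called 3 of the cyclins, 1 inhibitor and 1 mitotic gene, where edgeR called 7.1% and DESeq2 11.3% of all genes. In RPF neither called one of these cyclins or inhibitors. At an unadjusted p under 0.05 the other cyclins had 3 higher and 2 lower in mRNA and 2 higher in RPF, the CDK inhibitors 1 lower in mRNA and none in RPF, and the mitotic genes 1 higher and 1 lower in mRNA. Over all genes that held for 8.85% higher and 9.1% lower in mRNA and for 9.62% higher and 10.7% lower in RPF. The 24 mitotic genes had a median log2 change of 0.01 in mRNA but -0.34 in RPF and -0.33 in TE. In RPF 19 of 24 were below 0, against 48.8% of all genes, and 7 of 24 had an unadjusted p under 0.05, all lower. edgeR called 3 and DESeq2 7 of the 24 lower in RPF, where they called 4.93% and 6.54% of all genes lower. RPF values did not overlap for 6 of the 24, all lower, which held for 12.8% of all genes in that direction and for 25.3% in either. The lists were chosen with earlier results of these data known, so these counts are descriptive. Over all 7 lists, limma calls in RPF ran from 0 to 15 with a clone left out. The remaining lists had median RPF changes from -0.13 (10 CDK activators and switches) to 0.08 (CDK inhibitors), with -0.03 for the other cyclins, -0.07 for 14 other CDKs, -0.01 for 20 retinoblastoma and E2F factors and 0.05 for 28 genes of cyclin degradation.

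**Figure D5:**
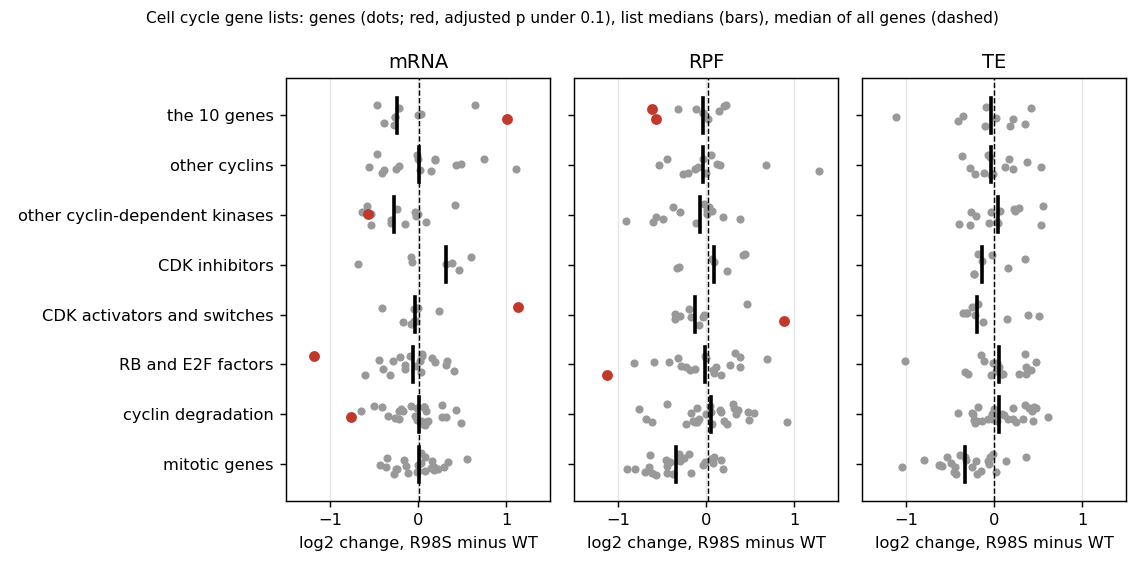
Log2 changes (*R98S* minus *WT*) of the 10 genes and of 7 lists of cell cycle genes in mRNA, RPF and TE; dots are genes, red where the adjusted p (limma) is under 0.1, bars are list medians and the dashed line is the median of all genes tested. The mitotic genes have a median of 0.01 in mRNA and -0.34 in RPF.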

How the data were processed

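mRNA and RPF libraries of 3 *R98S* and 3 *WT* Ba/F3 clones were compared. The authors deposited normalized counts, a signal made by scaling read counts with DESeq2 size factors, after trimming, removal of ribosomal and transfer RNA with Bowtie2, alignment to mm10 with TopHat2 2.0.11 and a mapping quality of at least 10. RPF were counted over coding sequence without its first 15 and last 5 codons, with 3 technical replicates merged, and mRNA over exons. Short coding sequences, multi-mapping reads of related genes and library depth can therefore affect the values. Dividing by the smallest step gave whole numbers for 100.0% of values in every library (tolerance 1e-06), so whole reads were recovered for edgeR 4.0.16 and DESeq2 1.42.0 as alternatives.

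The main test used limma 3.58.1 under R 4.3.3, with an intensity trend of the variance, after log2 transformation with 1 added, for genes with a mean of at least 10 in a table. TE was the log2 ratio of RPF to mRNA within a clone, for genes with at least 10 in all 12 libraries. Clone numbers in the labels pair the libraries of a clone, and deviations from the genotype mean correlated with a mean r of 0.519 (0.218 to 0.681). Clones of the genotypes share no number. P-values measure the spread between clones of 1 line. Scripts were tested on simulated data. Loci and exon lengths came from the GENCODE annotation of mm10, where 36776 of the mRNA table's genes matched 1 locus by symbol, and promoters from RefSeq. The reads behind a value were few for *Ccne2* (31 to 200 footprints), which limits its precision. The paper's TE test, Babel, was not run.

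Alternatives were pseudocounts of 0.5 and 5, no filter on low values, TMM scaling, removal of chromosome medians, tests on whole reads, and each clone left out. The 10 genes were named throughout, with *Rpl10*, *Cdk1*, *Ccnd1*, each gene of the lists that passed the threshold, and the gene most like each of the 10 in its pattern. *Bbs7* and *Exosc9* were added after their values were seen. Genes and lists were chosen with earlier results of these data known.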

Additional observations from a re-analysis of the deposited data

How the results depend on the processing

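Of 230 values of the 10 genes recomputed with all clones, 223 kept their sign and their side of the threshold and 4 changed sign. Of 180 with a clone left out, 147 kept both and 17 changed sign. For effects near 0 the sign was set by the processing: with chromosome medians removed the changes of *Ccnd2* mRNA, *Ccna2* RPF and *Cdk2* RPF were 0.062, 0.18 and 0.014, with TMM scaling *Ccnd2* mRNA was at 0.0047, and *E2f2* TE was at -0.0064 in the DESeq2 interaction model. In mRNA the number of genes called went from 787 to 1283 with DESeq2, that of the 10 genes from 1 to 2, and that of the listed regulators from 4 to 10 (1 with chromosome medians removed). In RPF, removing chromosome medians left 1 of the 2 called cyclins, and regulators called went from 2 (1 higher) to 4, all lower. DESeq2 called 14 regulators (12 lower) and edgeR 6 (4 lower). In TE, limma called 2 genes, 4 without the filter, DESeq2 6, and DESeq2 with a replicate block for the clone, chosen after seeing the data, 54, among them 1 of the 10 genes and 2 regulators. RPF and mRNA libraries are paired by clone. Without the replicate block *Ccna2* TE had an adjusted p of 1.000 (limma). Causes of these differences were not tested.

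With each clone left out, genes called ranged from 315 (without *R98S* clone 13) to 1113 (without *WT* clone 28) in mRNA, from 229 (without *R98S* clone 13) to 1148 (without *R98S* clone 35) in RPF and from 0 to 3 in TE. Of the 10 genes, 0 to 2 were called in mRNA and 0 to 1 in RPF, and of the regulators 1 to 7 and 0 to 15. Changes whose sign turned ranged as follows. In mRNA they were -0.28 to 0.27 for *Ccnd2*, -0.043 to 0.12 for *Cdk4* and -1.11 to 0.31 for *Cdk6*. In RPF they were -0.17 to 0.18 for *Ccnd2*, -0.11 to 0.092 for *Ccne1*, -0.24 to 0.063 for *Ccna2*, -0.12 to 0.015 for *Cdk2* and -0.035 to 0.33 for *Cdk6*. In TE they were -0.22 to 0.45 for *Ccnd2*, -0.27 to 0.0037 for *Ccnd3*, -0.016 to 1.24 for *Cdk6*, -0.42 to 0.018 for *Wee1*, -0.026 to 0.15 for *E2f2*, -0.21 to 0.062 for *Cdk13* and -0.47 to 0.60 for *Fbxw7*. Within each assay, depth was lowest in the mRNA library of *WT* clone 28 and the RPF library of *R98S* clone 35, and *Ccne2* had few footprints.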
